A study of Drosophila melanogaster with 34 samples.

Results

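Larvae of Drosophila melanogaster populations selected in constant ethanol were compared with larvae of populations selected in a variable regime. The samples were all arrays of extraction days 1 and 2 from populations E1 and E2 of the constant regime (8 arrays) and from M1 and M2 of the variable regime (6 arrays), 14 of the 34 arrays analysed in the series. All populations came from 1 outbred base population of wild-caught flies and had been selected for over 300 generations, with 2 populations per regime. In the E regime every vial of every generation held medium with 12% ethanol. In the M regime equal numbers of vials held ethanol medium and standard medium, and the progeny of all vials were mixed before the next generation. The control populations R1 and R2, used here as a reference, were kept on standard medium throughout. Before the measurement, flies of all populations spent at least 2 generations on standard medium, so the larvae measured were not taken from the selection vials. Females laid for 3 hours, and the eggs were then covered for 15 hours with 18% ethanol, which gives about 12% after mixing with the laying medium, or with distilled water. Newly hatched larvae were pooled in groups of 50 to 200 for RNA, which was hybridised to Affymetrix arrays. E1 and E2 each had 4 arrays, 1 per exposure and day. M1 had 3 arrays with no water array of day 2 among them, and M2 had 3 arrays with no ethanol array of day 1.

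Ethanol is both a toxin and a food for fruit fly larvae, which live in fermenting fruit. Alcohol dehydrogenase oxidises it to acetaldehyde, aldehyde dehydrogenase oxidises that to acetate, and acetyl-CoA synthase makes acetyl-CoA, which can be burned or built into fat. Lipases and glycosidases of the gut and fat body release fatty acids and sugars, and cytochrome P450s, glutathione S-transferases and UDP-glycosyltransferases modify foreign compounds. A population that meets ethanol in every generation and one that meets it in part of its vials face different mixtures of these demands, and the design asks whether they came to differ in gene expression.

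Expression was given as log2 values per probe set, and 9627 of 18769 probe sets that reached 4 on at least 3 of the 14 arrays were tested. These probe sets name 7982 genes. A probe set is called here when its adjusted p in limma is under 0.05. The 14 arrays correlated at 0.962 to 0.992, and each held 9306 to 9387 probe sets at 4 or more, a level near which the background model sets the values. The pools were whole larvae, and markers of muscle, gut, haemocytes and neurons were present: 9 of 9, 10 of 10, 13 of 14 and 10 of 11 of those on the array reached the test. Of 9 markers of the male germ line, 7 were under 4 on all 14 arrays, as were 6 of 9 salivary gland markers and 5 of 9 embryonic patterning markers. In pools of whole larvae, fewer cells of a type and less RNA per cell cannot be told apart.

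The differences between E and M labels on day 5 mostly opposed those of days 1 and 2, and the arrays of day 5 were therefore left out. For E2 against M2 after water, opposition was seen among the called probe sets and not across all probe sets. For E1 against M1, the difference between the day 5 arrays correlated at -0.50 after water and at -0.51 after ethanol with the difference on days 1 and 2, across probe sets, and 258 and 254 of the 271 probe sets called on days 1 and 2 had the opposite sign. For E2 against M2 the correlations were 0.03 after water and -0.45 after ethanol, and 21 and 25 of 27 called probe sets had the opposite sign. On days 1 and 2 the matched differences correlated with their own pooled difference at 0.25 to 0.60, a value that includes each array's own share in it. The gene CG15772, described next, was, after ethanol and after water, at 8.30 and 7.98 on the day 5 arrays labelled E1 and at 6.68 and 7.92 on those labelled E2, against 2.71 and 1.84 on those labelled M1 and 3.36 and 2.88 on those labelled M2. These values cannot tell apart which days carry the intended labels, so every direction below holds for the labels of days 1 and 2. With the 3 days taken as labelled, no probe set was called in either pair of populations.

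**Figure D1:**
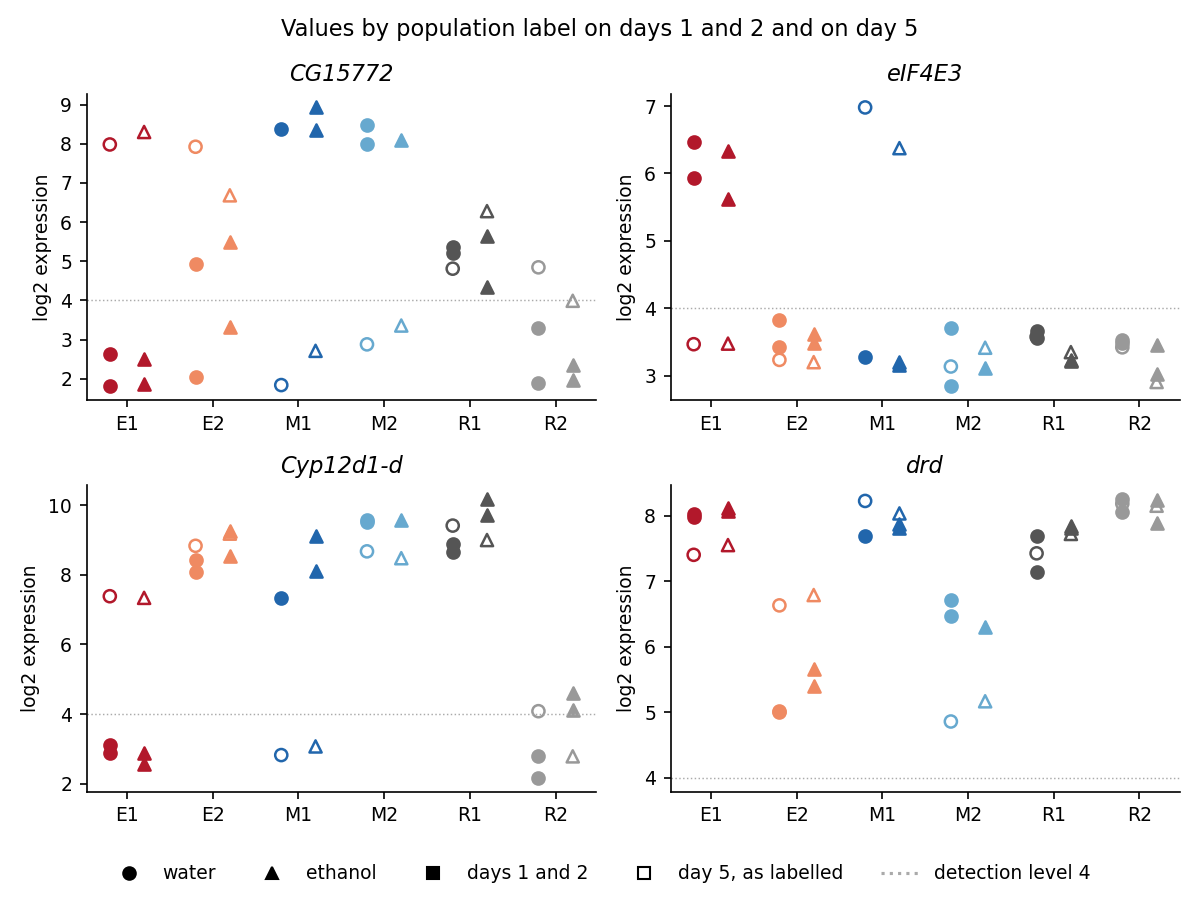
Log2 expression of CG15772, eIF4E3, Cyp12d1-d and drd on each array by population label, with circles for water, triangles for ethanol, filled symbols for days 1 and 2 and open symbols for day 5. CG15772 lay under 5.6 on all 8 E arrays and above 7.9 on all 6 M arrays of days 1 and 2, and the order of the labels was turned on day 5, while eIF4E3 was above 5.6 only on the E1 arrays of days 1 and 2 and on the day 5 arrays labelled M1.

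A single gene separated the regimes by a wide gap. CG15772, a gene on the X chromosome without an assigned role here, was at 2.63 and 1.81 after water and at 2.52 and 1.88 after ethanol in E1 on days 1 and 2. In E2 it was at 2.04 and 4.94 after water and at 3.31 and 5.49 after ethanol. M1 gave 8.36 after water and 8.93 and 8.35 after ethanol, and M2 gave 7.99 and 8.49 after water and 8.10 after ethanol. All 8 E arrays thus lay below all 6 M arrays, with 2.51 between the highest E array and the lowest M array. The control arrays of days 1 and 2 also lay below all M arrays, at 4.34 to 5.63 in R1 and 1.90 to 3.30 in R2. The fitted difference was -6.39 ± 0.54 on the log2 scale for E1 against M1 (limma standard error, adjusted p = 6.6e-06) and -4.20 ± 0.54 for E2 against M2 (adjusted p = 0.00127). Of the 8 E values 6 were under 4, so the size of the difference depends on the background correction, while the order of the arrays does not overlap. Both calls held with each of the 14 arrays left out in turn, with values of -6.80 to -6.12 in the first pair and -4.67 to -3.57 in the second. Ethanol did not move the gene detectably in the control populations (-0.15, adjusted p = 0.847).

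Beyond CG15772 few probe sets differed in both pairs. E1 against M1 gave 271 calls (2.81% of those tested) and E2 against M2 gave 27 (0.28%), and 4 probe sets were called in both with the same sign (0.0415%). These were CG15772, 2 of the probe sets of CG44014 and a probe set unnamed here, 1626566_at. Nplp4, which encodes a neuropeptide-like precursor, was called in both with opposite signs, at -0.55 in the first pair and 0.64 in the second. The pairs share no array. Over all tested probe sets, 50.9% had the same sign in both pairs and the estimates correlated at 0.089 across probe sets, which are not independent. Of the 271 calls of the first pair, 154 had the same sign in the second (56.8%), as did 14 of the 27 calls of the second pair in the first (51.9%). The number of calls common to both depended on single arrays. Of the E arrays, the day 1 water array of E2 correlated least with its own population (mean r 0.285 of deviations from the exposure and day means). The day 1 water array of M1 was lower still, at 0.263. Without that E2 array, 13 probe sets were called in both pairs, 3 higher and 10 lower in E, and the 4 above were among them. The count was 1 without the day 1 water array of M2, its day 2 ethanol array or its day 2 water array, and 2 without the day 1 ethanol array of E1, the day 2 water array of E1 or the day 2 ethanol array of M1.

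**Figure D2:**
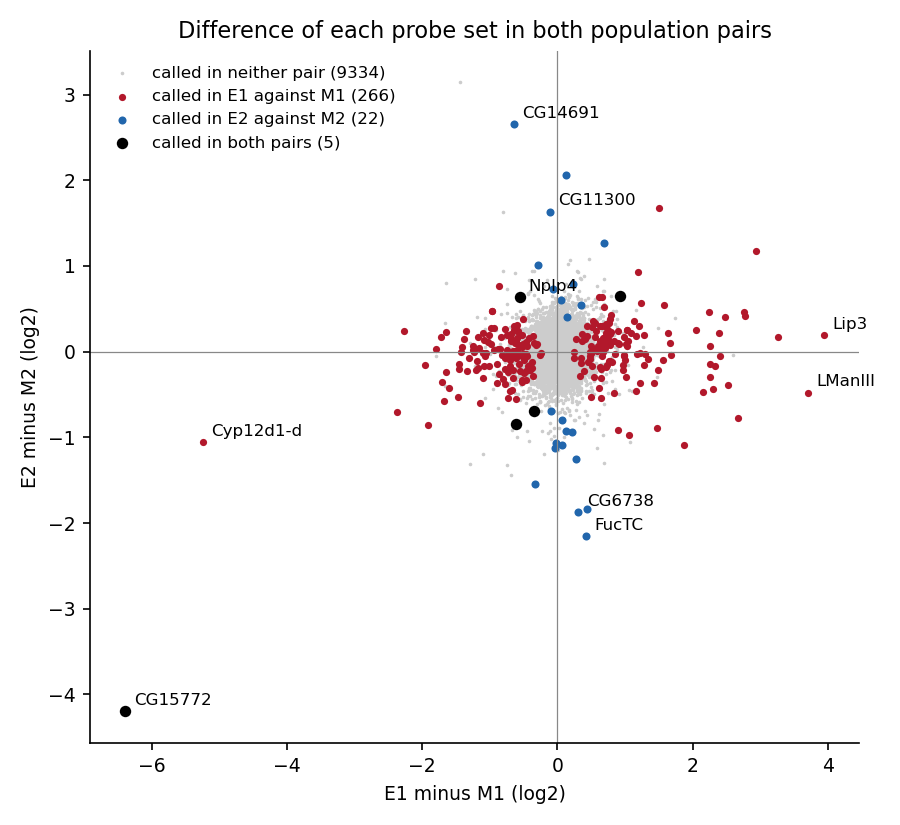
Difference between the regimes in log2 for each of 9627 probe sets, E1 minus M1 on the horizontal axis and E2 minus M2 on the vertical axis, coloured by the pair in which it was called. CG15772 is alone at the lower left, and most calls of either pair lie near 0 in the other.

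CG44014 was lower in both constant-regime populations by a smaller amount. One of its probe sets was at 10.2 to 10.4 in E1, 9.88 to 10.1 in E2, 10.5 to 10.7 in M1 and 10.7 in each array of M2. All E arrays of this probe set lay below all M arrays, with a gap of 0.097, and the differences were -0.34 and -0.69 (adjusted p = 0.0496 and 0.00127). The first of these calls was lost when any of 10 single arrays was left out or the fit was changed in most ways tried, and the second held without each of the 14 arrays. Its other probe set differed by -0.61 and -0.84. The unnamed probe set 1626566_at was higher in E by 0.93 and 0.65 (adjusted p = 0.000238 and 0.0226).

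When populations were taken as the replicates, 2 against 2, no probe set was called between the regimes (0 of 9627 in limma, 212 at an unadjusted p under 0.05, smallest adjusted p 0.9995). An exact permutation test of 2 populations against 2 cannot give a p under 0.333. CG15772 had the smallest p of the genes with both E populations on 1 side of both M populations, at -5.29 ± 0.58 (unadjusted p = 0.000236). Both E populations lay on the same side of both M populations in 2751 probe sets (28.6%), 1299 with E higher and 1452 with E lower. BomS2, which encodes a secreted immune peptide of the bomanin family, differed by -1.15 ± 0.15 between the population means, but its arrays ranged from 1.99 to 6.91 in E and from 3.83 to 7.07 in M and overlapped.

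With the 14 arrays taken as units, 13 probe sets were called (0.135%), 6 higher (0.0623%) and 7 lower (0.0727%) in E. That test treats arrays of 1 population as independent, so it measures the spread between arrays of these 4 populations. It called CG15772, the CG44014 probe sets called in both pairs, 1626566_at, CG17633, CG14957, CG34276, CG18417, jef and the lipase gene Lip4. The rest were egh, a glycosyltransferase gene of glycosphingolipid synthesis, scrib, a scaffold of epithelial polarity, and Akh, the adipokinetic hormone that mobilises stored fat and sugar. Akh was higher by 0.45 ± 0.08 (adjusted p = 0.04995), with 10.1 to 10.8 in E and 9.77 to 10.5 in M, and the groups overlapped. Lip4 was higher by 0.62 and, after water, lay at 9.03 to 9.38 in E against 8.44 to 8.85 in M. After ethanol Lip4 lay at 7.86 to 8.27 in E and 7.07 to 7.71 in M, so its groups overlapped across exposures and did not within one. Of these 13 calls only that of CG15772 held with each of the 14 arrays left out in turn, and the count of calls ran from 1 to 22 when 1 array was left out.

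The arrays of E and M did not overlap in 15 probe sets (0.156%). After CG15772 the widest gaps were those of scrib, at 3.90 to 4.58 in E and 3.44 to 3.72 in M, and jef, at 7.17 to 8.39 in E and 8.58 to 9.28 in M, each with 0.18 between the groups. For scrib the values lie close to the background level of 4. All its M arrays were under 4, so it reached the test through E arrays alone. Its call with arrays as units and its gap thus depend on the background correction. Its other tested probe sets were not called with arrays as units. The others were Uck (uridine-cytidine kinase), RabX1 (a small GTPase of vesicle traffic), CG31955, CG6204, CG17739 and an unnamed probe set, all higher in E, and CG14820, egh, ReepB, CG14687, CG10465 and CG44014, all lower, with gaps of 0.01 to 0.10.

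In the first pair, E1 differed from M1 in 271 probe sets, 135 higher and 136 lower in E1, and 91 of these by over 2-fold. Arrays of E1 and M1 did not overlap in 166 of the 271, against 8.58% of all tested probe sets, and all 3 matched array pairs had the same sign in 270, against 32.4% of all tested. The calls were made on these same arrays, so both counts follow largely from the calling and are no separate support. The calls were spread over the chromosomes, with 2.43% of tested genes on X, 3.30% on 2L, 2.63% on 2R, 3.24% on 3L and 2.60% on 3R. Of 225 called genes with a position in the RefSeq table (Release 6 plus ISO1 MT), 37 (16.4%) had a called gene as their neighbour, against 5.45% of all tested genes. They formed 18 runs, among them the mannosidase genes LManIII and LManV, the peptidase genes Jon65Aii and Jon65Ai, and Ugt35E2 with Ugt35B1. The number of calls fell to 163 without the day 1 ethanol array of M1, to 162 without its day 1 water array, to 150 without the day 1 ethanol array of E1 and to 161 in a fit without the day, and all 271 kept their sign in these 4 fits.

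The largest differences of the first pair included genes at which E1 also stood apart from E2. Cyp12d1-d, which encodes a mitochondrial cytochrome P450 known to be induced by insecticides, was at 2.87 and 3.12 after water and 2.55 and 2.89 after ethanol in E1. In M1 it was at 7.32 after water and 9.12 and 8.12 after ethanol, in E2 at 8.09 to 9.27, in M2 at 9.53 to 9.58 and in R1 at 8.66 to 10.2. R2 was low as well, at 2.17 to 4.61. The E1 and M1 arrays were thus far apart, by -5.25 ± 0.30 (adjusted p = 1.26e-07), with E1 under the background level. Cyp12d1-d has a near-identical copy, Cyp12d1-p, so the probe set may read both. eIF4E3, one of several genes for the factor that binds the cap of messenger RNA, was at 5.93 and 6.46 after water and 5.62 and 6.33 after ethanol in E1. It lay between 2.84 and 3.83 on all arrays of E2, M1, M2, R1 and R2 from days 1 and 2, with no overlap. The difference to M1 was 2.77 ± 0.19 (adjusted p = 8.74e-07). Since eIF4E3 was under 4 on all arrays of the other populations, it reached the test through E1 alone, and the size of this difference depends on the background correction.

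CG42335 was higher in E1 than in M1 by 2.78 ± 0.20 (adjusted p = 8.74e-07), at 5.44 to 7.26 against 2.82 to 3.98 with no overlap and with M1 under 4. Zip102B, a zinc transporter gene, was at 3.84 and 4.79 after water and 3.48 and 4.91 after ethanol in E1, against 6.87 after water and 7.07 and 5.42 after ethanol in M1. It was at 7.89 to 8.58 in E2, M2, R1 and R2, so E1 was lowest and M1 stood between E1 and the others. Its difference to M1 was -2.26 ± 0.37 (adjusted p = 0.00231). jef was lower in E1 by -1.68 ± 0.14, at 7.17 to 7.47 against 8.84 to 9.28, and CG4269 by -1.70 ± 0.22, at 6.96 to 8.66 against 9.15 to 9.79. Each of these 4 calls, and those of Cyp12d1-d and eIF4E3, held with any of the 14 arrays left out, as did 33 of the 54 calls of named genes in this pair. CycB3, a mitotic cyclin gene, differed by -1.80 ± 0.44 (adjusted p = 0.0362), but this rested on M1 ethanol arrays at 6.41 and 8.12, since the M1 water array was at 4.49 and E1 at 3.88 to 5.09, and the call was lost when any of 6 arrays of E1 and M1 was left out.

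Some genes of lipid and sugar breakdown were higher in E1 than in M1, and the others of their lists were not called. Of 16 tested genes of lipolysis and fatty acid oxidation, 6 were called higher, none lower and 10 not called, with a list median of 0.31. Of 16 maltase, amylase and mannosidase genes, 6 were called higher, none lower and 10 not called, with a list median of 0.65. Over all tested probe sets, 1.40% were called higher and 1.41% lower, and the median was -0.0016. The lists were chosen with earlier results of these data known.

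Lip3, a lipase gene, gave the largest increase. After water it was at 10.5 on both E1 arrays and at 7.33 in M1, and after ethanol at 7.37 and 5.10 in E1 and 1.98 and 2.03 in M1. E1 was higher than M1 in every matched pair of arrays, by 3.08 to 5.39, although the arrays of the populations overlapped across exposures. The fitted difference was 3.95 ± 0.32 (adjusted p = 4.14e-06), with the M1 ethanol arrays under 4. CG8093 and CG6283, also lipase genes, were higher by 2.52 ± 0.27 and 2.24 ± 0.25. bmm, the triglyceride lipase of fat storage, was higher by 0.75, Lip4 by 0.61 and yip2, a thiolase of fatty acid oxidation, by 0.59. LManIII, which encodes a lysosomal alpha-mannosidase, was at 9.47 and 10.3 after water and 5.86 and 5.07 after ethanol in E1, against 6.93 after water and 1.60 and 1.66 after ethanol in M1. It was higher by 3.70 ± 0.47 (adjusted p = 0.000285), again with the M1 ethanol arrays under 4, and the adjacent LManV by 2.25. Amyrel, an amylase-related gene, was higher by 2.40, the maltase genes Mal-A4 and Mal-A2 by 2.30 and 1.18, and tobi, an alpha-glucosidase gene under dietary control, by 1.58.

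The midgut markers were not higher in E1. Their summed level was 14.3 to 14.6 in E1 and 14.5 to 14.6 in M1, on a log2 scale, and 2 of 10 were called, both lower in E1: the serine peptidase genes Jon65Ai and Jon65Aii (-0.78 and -0.82). Of 24 serine peptidase genes of the gut, 3 were lower and 1, Jon99Ci, was higher, against 1.41% and 1.40% of all tested probe sets. The summed fat body markers were at 13.4 to 13.7 in E1 and 13.6 to 13.7 in M1, with 3 of 7 under 4 on all arrays and 1 of 4 tested called, Gbs-70E (-1.47 ± 0.17), which targets protein phosphatase to glycogen. The part of cell composition in these results was not tested.

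Most genes of fat synthesis and of ethanol breakdown were not called. Over all tested probe sets, 1.40% were called higher and 1.41% lower. In the list of fat synthesis, 16 genes were tested and 3 were lower in E1, Lsd-1 (a perilipin of lipid droplets, -0.71), ACC (acetyl-CoA carboxylase, -0.42) and FASN1 (fatty acid synthase, -0.37), and 1 was higher, Lpin (phosphatidate phosphatase, 0.62), with a list median of -0.05. Of 11 tested genes of ethanol and acetaldehyde metabolism, 2 were lower and 9 were not called, with a list median of 0.02. AcCoAS, which encodes acetyl-CoA synthase, was at 11.8 and 11.4 after water and 12.5 and 12.7 after ethanol in E1, against 12.1 after water and 12.96 and 12.89 after ethanol in M1. E1 was lower in each matched pair, by -0.37 ± 0.08 in the fit (adjusted p = 0.0131), a call lost without the day 1 water array of M1, its day 2 ethanol array or the day 1 ethanol array of E1. Gpdh1, glycerol-3-phosphate dehydrogenase, was lower by -0.24. With each of the 14 arrays left out in turn, the calls of ACC, Lpin and Gpdh1 held in 11, 10 and 8 fits. The 2 probe sets shared by Adh and Adhr differed by -0.06 and -0.06 in the first pair and by 0.01 and 0.05 in the second, and none of these was called. Aldh did not reach the test.

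Further calls of the first pair fell in other lists, each with most of its members not called. Over all tested probe sets 2.81% were called, 1.40% higher and 1.41% lower. No list was tested as a set, so its few calls give no direction for the list. Among 14 genes of glycolysis and gluconeogenesis, Hex-A (hexokinase) was higher by 0.35 and Pepck2 (phosphoenolpyruvate carboxykinase) lower by -0.97. Prat2, an enzyme of the first step of purine synthesis, was higher by 2.94 ± 0.52, and sug, a transcription factor of the sugar response, was lower by -1.21 ± 0.30 with an adjusted p of 0.045, a call lost without any of 10 arrays. All 3 called glutathione S-transferase genes of 31 were higher, led by GstE7 at 1.43. Of 60 cytochrome P450 genes, 2 were higher (Cyp28d1 and Cyp4ac1) and 3 lower (Cyp310a1, Cyp9b2 and Cyp6w1). Cyp12d1-d is not a member of that list as it was written. Ugt35E2 and Ugt35B1 were lower among 25 UDP-glycosyltransferase genes. PGRP-SC2, a peptidoglycan-degrading immune regulator, was higher by 1.04 and the lysozyme gene LysP lower by -1.45 among 13 immune genes. Of 60 cuticle protein genes 2 were higher and 4 lower, led by Cpr64Ad at -1.45, and of 26 odorant-binding protein genes 1 was higher and 3 lower, led by Obp56e at -1.35. CG8036 of the pentose phosphate list (-0.46), UQCR-11 of oxidative phosphorylation (-0.60) and the sugar transporter gene sut2 (0.72) were the single calls of their lists. Several of the calls counted here were unstable. With each of the 14 arrays left out in turn, that of Hex-A held in 4 fits, GstS1 in 5 and Obp99c in 7. Those of GstD10, Obp56a, Cpr67Fa1, Ugt35B1, UQCR-11 and sut2 held in 9 each. No gene was called among 13 heat shock and chaperone genes, 9 of oxidative stress, 11 of ecdysone and moulting, 33 of the cytosolic and 69 of the mitochondrial ribosome, 11 of the cell cycle, 12 of alcohol behaviour, 20 of ion and water transport, 4 chemoreceptors and 4 of transposon control. The cell cycle list holds replication genes and a few cyclins and leaves out CycB3, Cdc23 (-1.01) and glu (-0.66), which were called.

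The genes that differed between E1 and M1 overlapped with those that respond to ethanol in the control populations, and mostly in the opposite sense. Ethanol against water was called in 1541 probe sets (16.0%) over the 12 arrays of R1 and R2 from days 1, 2 and 5, which share no array with either pair. Of the 271 calls of the first pair, 113 (41.7%) were among them. In 97 of these 113 (85.8%) the sign was opposite: 52 were higher in E1 and lowered by ethanol in the controls, and 45 were lower in E1 and raised by ethanol, while 16 had the same sign. Over all 1541 probe sets the difference between E1 and M1 was opposite in 64.8%. M1 had 2 ethanol arrays and 1 water array, and the fit took the same exposure effect for all populations. In a fit with a mean per population and exposure, 232 of the 271 were called and all 271 kept their sign. The part of this imbalance in the share of opposite signs was not tested. Lip3, LManIII and CG8093, higher in E1, were lowered by ethanol in the controls by -5.51, -5.19 and -4.56. CG1774, lower in E1 by -1.96 ± 0.38, was raised by 2.24, and AcCoAS, sug and Gbs-70E were raised by 1.04, 1.70 and 1.19. The call of CG1774 was lost without the M1 water array. Prat2 went against this pattern, being higher in E1 and raised by 3.88 in the controls. For Cyp12d1-d, eIF4E3 and CG15772 ethanol gave no call in the controls (0.73, -0.34 and -0.15).

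**Figure D3:**
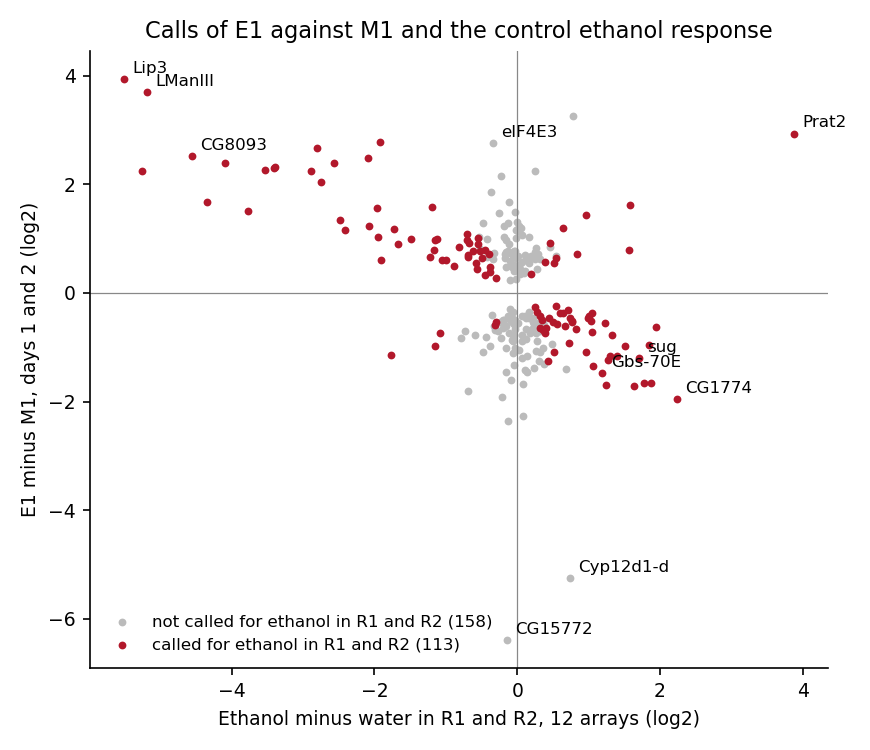
E1 minus M1 on days 1 and 2 in log2 against ethanol minus water in the control populations R1 and R2 in log2, for the 271 probe sets called in the first pair, with the 113 called for ethanol in the controls in red. Most red points lie in the upper left and lower right, with Prat2 in the upper right.

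In the second pair, E2 differed from M2 in 27 probe sets, 12 higher (0.125%) and 15 lower (0.156%) in E2, and 14 of these by over 2-fold. Arrays of E2 and M2 did not overlap in 23 of the 27 (7.61% of all tested), and the matched pairs had the same sign in all 27 (33.4% of all tested). Here too the calls were made on these same arrays, so the counts are no separate support. CG14691 gave the largest increase, at 5.59 and 6.69 after water and 7.19 and 7.14 after ethanol in E2, against 3.37 and 4.08 after water and 4.24 after ethanol in M2. The groups did not overlap, and the difference was 2.66 ± 0.30 (adjusted p = 0.000426). In the first pair both populations were low, at 1.74 to 2.20 in E1 and 2.10 to 3.46 in M1. CG14691 thus reached the test only through its E2 arrays. With M2 near 4, the size of its difference depends on the background correction. CG11300 was higher by 1.63 ± 0.24, CG31955 by 1.27 ± 0.22 and rk, the receptor of the tanning hormone bursicon, by 1.01 ± 0.17. Smaller increases were those of Ugt49C1 (0.78), a UDP-glycosyltransferase gene, Gbp2 (0.74), a growth-blocking peptide gene, Nplp4 (0.64), IntS8 (0.60), a subunit of the Integrator complex, and Akh (0.55).

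FucTC, a fucosyltransferase gene, was at 6.63 and 6.90 after water and 6.49 and 6.82 after ethanol in E2, against 8.25 and 9.58 after water and 9.09 after ethanol in M2. It was lower without overlap, by -2.15 ± 0.20 (adjusted p = 6.06e-05). drd, which encodes the membrane protein drop dead, was at 5.02 and 5.00 after water and 5.40 and 5.65 after ethanol in E2, against 6.48 and 6.71 after water and 6.30 after ethanol in M2. It differed by -1.25 ± 0.16 (adjusted p = 0.00124), and M2 itself lay below the 7.14 to 8.26 of E1, M1, R1 and R2. CG6738 was lower by -1.87 ± 0.23, at 6.69 to 8.38 against 8.71 to 9.94, and the control populations were higher still, at 10.0 to 11.3. Usp10 (a deubiquitinase, -0.80) and Rtf1 (a partner of the elongating RNA polymerase, -0.70) were lower, as was CG30265 (-1.54). The calls of CG15772, CG14691, CG11300, FucTC, CG6738, drd and 1 probe set of CG44014 held with any of the 14 arrays left out, and the other 12 of 19 calls of named genes in this pair did not.

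Of the lists of genes, the second pair had a call in only 2: Ugt49C1 among 25 UDP-glycosyltransferase genes and Akh among 10 genes of starvation and nutrient sensing. The medians of the lipolysis and the maltase, amylase and mannosidase lists were 0.11 and -0.04. Of the 27 calls, 8 (29.6%) were called for ethanol in the controls, 2 of them with the opposite sign (25.0%, against 43.7% over all 1541). The count of calls was 12 without the day 1 water array of M2, 14 without its day 2 water or ethanol array, 16 without either day 2 array of E2, and 77 without the day 1 water array of E2. All 27 kept their sign in these fits.

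The difference between the regimes itself differed between the pairs in 107 probe sets (1.11%). The 5 with the smallest p were Cyp12d1-d (-4.19 ± 0.43), FucTC (2.58 ± 0.29), eIF4E3 (2.30 ± 0.27), CG42335 (2.36 ± 0.28) and Lip3 (3.75 ± 0.46), each the first pair minus the second, with adjusted p of 0.000541 to 0.000755. For CG15772 the same test gave -2.19 ± 0.78 with an adjusted p of 0.265, so a difference in size between the pairs was not shown.

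Populations of the same regime differed as well. E1 and E2 differed in 1201 probe sets (12.5%) and M1 and M2 in 229 (2.38%). The population numbers are not stated to pair E with M, and the crossed comparisons gave 807 calls for E1 against M2 (8.38%) and 523 for E2 against M1 (5.43%). CG15772 was called in both crossed comparisons, by -5.93 and -4.66. It was also called between E1 and E2, by -1.74 ± 0.49 (adjusted p = 0.0297), with E1 the lower. The arrays of E1 and E2 overlapped for this gene. All its E1 values and some E2 values were under 4, so the size of that difference depends on the background correction. Between M1 and M2 CG15772 was not called (0.46, adjusted p = 0.795). Lip3 was higher in E1 than in E2 by 3.89 ± 0.29, against 3.95 ± 0.32 for E1 over M1.

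**Figure D4:**
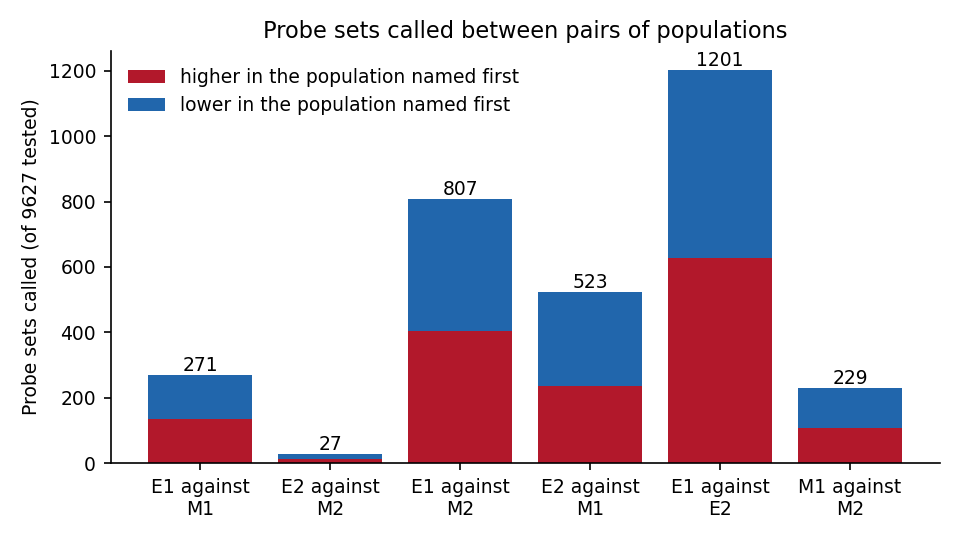
Number of probe sets called in each of the 6 pairs of populations, out of 9627 tested, split into higher and lower in the population named first. The 1201 calls between E1 and E2, of the same regime, outnumber the 271 and 27 of E1 against M1 and E2 against M2.

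Against the mean of the control populations, E1 was the farther of the pair in 204 of the 271 calls (75.3%, against 54.7% of all tested), with a median distance of 0.64 for E1 and 0.22 for M1. E2 was the farther in 23 of the 27 calls (85.2%, against 56.2%), with medians of 0.98 and 0.26. eIF4E3, CG42335 and FucTC were of this kind. CG15772 was not, since M1 and M2 lay above all control arrays and E1 and E2 nearer to them.

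The response of the larvae to ethanol differed between the regimes in 2 probe sets (0.0208%). phu, whose level did not differ between the regimes (-0.01 ± 0.25 in the mean of both exposures), had a fitted response to ethanol of 0.69 in E1 and 1.03 in E2 and of -1.15 in M1 and -1.07 in M2, none of them called alone. After ethanol it was at 9.08 and 8.62 in E1 and 10.3 and 9.06 in E2, against 8.25 and 8.41 in M1 and 7.88 in M2, and these E and M arrays did not overlap. After water it was at 8.38 and 7.94 in E1, 9.51 and 7.75 in E2, 9.86 in M1 and 9.75 and 8.90 in M2, and these overlapped. The regimes differed in the response by 1.97 ± 0.19 (adjusted p = 0.00789), by a limma test of fitted responses, 2 against 2. The responses had their own limma standard errors, 0.32 in E1 and E2 and 0.40 in M1 and M2, which that error does not take in. Ethanol lowered phu in the controls by -1.71 (adjusted p = 0.000934).

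The gene mag, which encodes a lipase of the gut, responded the other way round. After water it was at 10.4 and 10.1 in E1 and 9.29 and 8.28 in E2, and after ethanol at 8.33 and 8.24 in E1 and 6.42 and 6.92 in E2. M1 was at 9.19 after water and 9.27 and 9.38 after ethanol, and M2 at 7.91 and 8.31 after water and 7.62 after ethanol. Ethanol lowered mag in both E populations, by -1.98 and -2.12 (adjusted p = 0.0012 and 0.000967), against 0.17 and -0.46 in M1 and M2, neither called. The responses differed by -1.90 ± 0.23 (adjusted p = 0.0318), by the same test of fitted responses, 2 against 2. Their own limma standard errors were 0.27 in E1 and E2 and 0.34 in M1 and M2. The controls gave -0.11 over days 1, 2 and 5, with the ethanol arrays of R2 at 7.05, 9.63 and 10.5. The M1 water and M2 ethanol values rest on 1 array each. The call of phu was lost without the day 1 ethanol array of M1 or either water array of E2, and that of mag without any of these or 3 further arrays, the day 1 water arrays of E1 and M2 and the day 2 ethanol array of E2.

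Within the first pair the response differed in 3 probe sets (0.0312%). Prat2 was at 8.38 and 8.27 after water and 8.34 and 8.86 after ethanol in E1, but at 3.08 after water and 7.05 and 7.23 after ethanol in M1. E1 thus had after water a level that M1 did not reach after ethanol, and its response was 0.28 against 4.03 in M1, a difference of -3.75 ± 0.43 (adjusted p = 0.00776) whose size rests on 1 M1 water array under 4. In R1 and R2 of days 1 and 2 Prat2 was at 2.36 to 3.72 after water and 6.54 to 7.97 after ethanol, and in E2 at 3.64 and 3.46 and at 6.19 and 5.59. CG10081 was at 9.46 and 9.81 after water and 8.65 and 8.71 after ethanol in E1, against 9.02 after water and 5.14 and 5.47 after ethanol in M1. Its response was -0.96 in E1 and -3.79 in M1, a difference of 2.83 ± 0.41 (adjusted p = 0.0307), and -3.40 in the controls. The unnamed probe set 1636492_at fell after ethanol in E1 from 8.26 and 6.68 to 4.67 and 3.44 and was at 2.09 to 2.63 on the M1 arrays, under 4, where no fall could be seen, so its call does not compare 2 measured responses. The Prat2 call was lost without the day 2 ethanol array of M1, that of CG10081 without any of 8 arrays and that of 1636492_at without any of 6. In the second pair no response differed (0 of 9627, 351 at an unadjusted p under 0.05, smallest adjusted p 0.462).

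**Figure D5:**
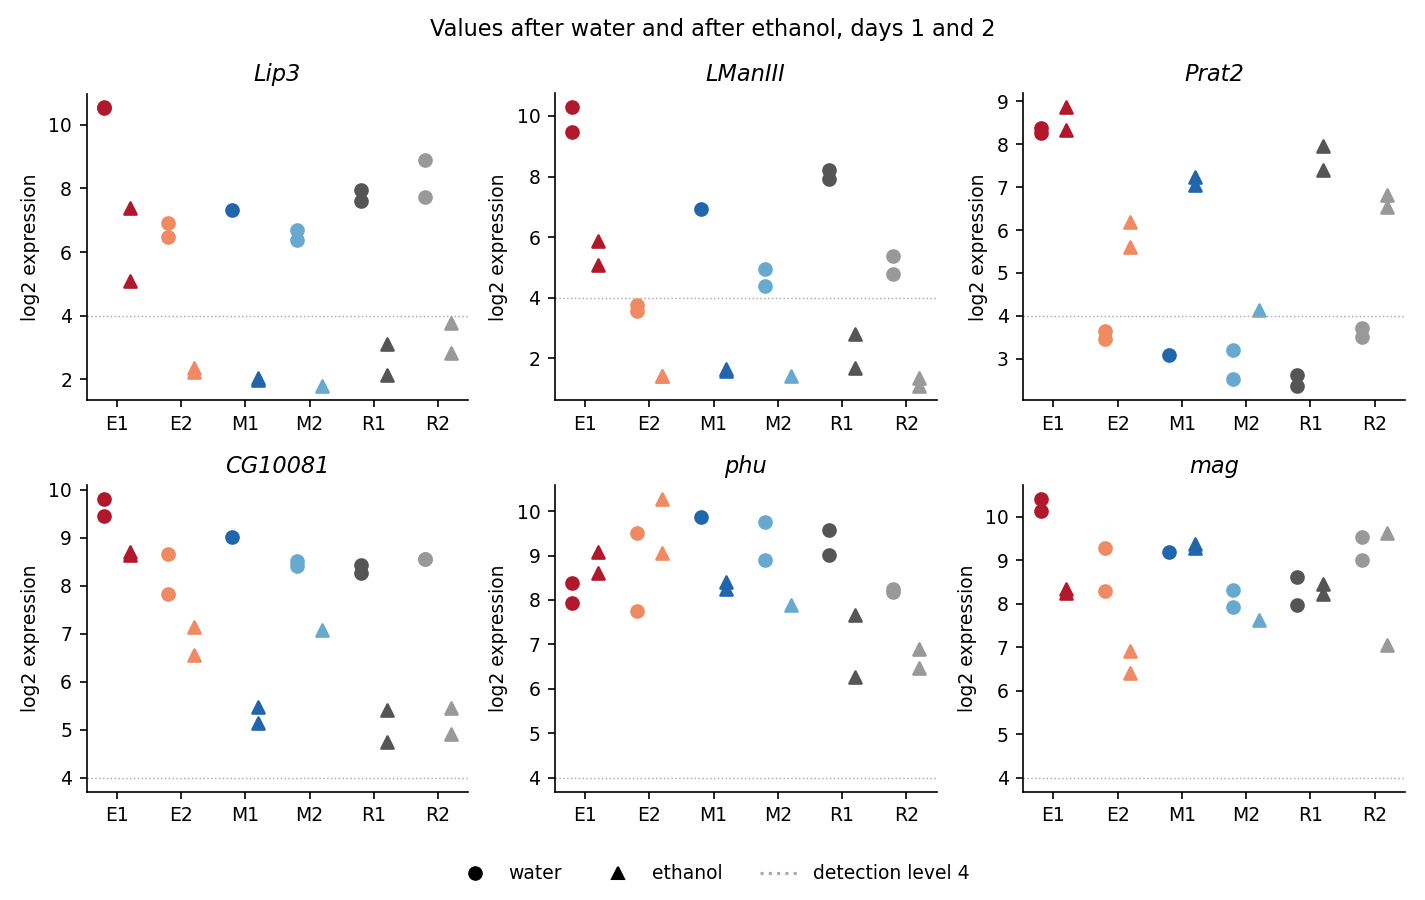
Log2 expression of Lip3, LManIII, Prat2, CG10081, phu and mag on each array of days 1 and 2 by population, with circles for water and triangles for ethanol. E1 is highest for Lip3 and LManIII at either exposure, its water arrays of Prat2 stand at 8.38 and 8.27 while all other water arrays lie under 4, and phu after ethanol is higher in E1 and E2 than in the other populations.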

How the data were processed

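The deposited data are 1 log2 value per probe set and array. The authors computed them by GCRMA in affy according to the submitters' processing notes, which give no version. GCRMA corrects for background by GC content, so values near 4 or lower depend on that model. The number of arrays and their spread limit precision. Population, exposure and day came from the titles. Gene names came from the platform annotation, updated by the RefSeq gene table: of 18769, 13647 list 1 gene, 402 several and 4720 are unlisted.

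R 4.3.3 and limma 3.58.1 fitted population, exposure and day to 14 arrays, with an intensity trend and Benjamini-Hochberg adjustment at 0.05 over 9627 probe sets with a value of at least 4 on at least 3 arrays. Interactions used the 8 means of population and exposure plus the day. Errors given as ± are limma standard errors. The labels give extraction blocks on different days, and deviations from population and exposure means correlated at 0.252 on average between arrays of the same day (lowest -0.048) and at -0.376 between days, over 12 arrays. The day, which is also the replicate number, is therefore a block in every fit reported. No label gives separate cultures for the arrays of a population, and p-values then measure the spread between these RNA samples. The test was also run on simulated data.

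Genes were named by a rule, with the probe set of highest mean per gene: those called in both pairs with the same sign, up to 10 in each direction; the 10 smallest p over populations among genes with both E populations on 1 side of both M populations; the 8 largest calls in each direction of either pair; the 5 smallest p of each interaction and of the pair difference; Adh, Adhr, Aldh and AcCoAS; and in each list at most 3 members, by smallest p in either pair. Other genes named (calls with arrays as units, arrays that do not overlap, further list members and neighbouring genes) were chosen after their values were seen. The members, lists and rules were chosen with earlier results of these data known. The response of the control populations and the matched array pairs were added after seeing the data. Arrays of day 5 were used for the label check, for the control response and in 1 alternative. Alternatives changed the filter, day term, normalization, moderation, probe sets per gene, arrays and exposures.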

Additional observations from a re-analysis of the deposited data

Results flagged for a closer look

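The difference between the regimes differed between the population pairs in 107 probe sets, by a test of that difference itself (E1 minus M1, less E2 minus M2, log2). The 5 named for it by smallest p were Cyp12d1-d at -4.19, FucTC at 2.58, eIF4E3 at 2.30, CG42335 at 2.36 and Lip3 at 3.75. All 5 calls held with each of the 14 arrays left out in turn. The response to ethanol differed between the regimes for phu, by 1.97, and for mag, by -1.90. In the first pair it differed for Prat2, by -3.75, for CG10081, by 2.83, and for the unnamed probe set 1636492_at, by -4.15, a value set by M1 arrays that all lay under 4.

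In 2 of 106 sets of 4 arrays (53 genes in E1 and in E2), 1 array stood far from the other 3 after the fitted exposure and day were taken out, as chance does in about 1 of 20 sets. For CG8093 in E1 it was the day 2 water array, at 11.1 (11.4 after that step, the others at 10.6 to 10.7), with a gap of 0.835 of the range. For Usp10 in E2 it was the day 1 water array, at 7.95 (the others at 7.80 to 7.82), with a gap of 0.907 of the range.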

How the results depend on the processing

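Under the alternatives tried, 2695 values of named genes kept their direction and side of the threshold, 823 kept the direction and lost the call, 17 gained a call and 26 reversed. The counts of calls (E1 against M1, E2 against M2 and both pairs in turn, 271, 27 and 4 in the report) moved with the day 5 arrays, with single arrays and with the exposure used. With days 1, 2 and 5 as labelled there were 0 calls in either pair, in both pairs, in the pair difference, with arrays as units and in the interactions of regime and of the first pair with exposure. Without the day as replicate block the counts were 161 for E1 against M1, 321 for E2 against M1, 136 for M1 against M2, 52 for the pair difference, 3 with arrays as units, 1 for the interaction of the first pair and 2 in both pairs. With water arrays alone they were 51, 7 and 0, with 344 for E1 against M2, 63 for E2 against M1, 499 for E1 against E2, 12 for M1 against M2, 18 for the pair difference and 0 with arrays as units. With ethanol arrays alone they were 187, 21 and 3, with 229 for E1 against M2, 567 for E1 against E2, 126 for M1 against M2, 54 for the pair difference and 0 with arrays as units. Fewer arrays entered these fits. With 1 probe set per gene there were 11 calls for E2 against M2, 8 with arrays as units and 2 in both pairs. Keeping probe sets with a mean of 6 or more gave 147 for M1 against M2, 2 in both pairs and 0 for the interaction of the first pair, and no filter gave 7 for the latter. Without an intensity trend the counts were 134 for M1 against M2, 59 for the pair difference, 5 with arrays as units, 2 in both pairs and 0 for both interactions. Robust moderation gave 2 in both pairs, quantile normalization 1 for the interaction of regime and exposure, and control populations in the fit 0 for that and 1 for the first pair. The causes were not tested.

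Leaving out arrays or days in turn gave 98 to 341 calls for E1 against M1, 1 to 77 for E2 against M2, 1 to 13 in both pairs, 108 to 928 for E1 against M2, 98 to 575 for E2 against M1, 383 to 1256 for E1 against E2, 15 to 305 for M1 against M2, 1 to 144 for the pair difference and 0 to 22 with arrays as units. It gave 0 to 2, 0 to 6 and 0 to 1 for the interactions of regime, first pair and second pair with exposure. With populations as replicates the count was 0 to 12: 3 without E1, 12 without E2 and 1 without day 2, where a lone population was assumed to vary like the others; 1 with population as a random block and 13 with arrays as units.

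Most values that changed sign were near 0. With days 1, 2 and 5 as labelled, CG6738 turned to 0.085 for E2 against M2 and sug to -0.10 for the interaction of the first pair. The 2 probe sets shared by Adh and Adhr were not called in any setting. Over populations the one turned to 0.0014 with days 1, 2 and 5 and ran from -0.080 to 0.033 with arrays, days or populations left out, and the other turned to 0.0076 with cell means and ran from -0.079 to 0.065. In the first pair the other turned to 0.0064 with water arrays alone. In the second pair the one turned to -0.019 when centred on medians, -0.0052 after quantile normalization, -0.0073 with cell means and -0.058 with ethanol arrays alone, and ran from -0.045 to 0.080 with arrays or days left out. There the other turned to -0.061 with days 1, 2 and 5 and -0.034 with water arrays alone, and ran from -0.055 to 0.13.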
